A study of Danio rerio with 6 samples.

Results

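The solute carriers are membrane proteins that move fuels and building blocks into cells and into mitochondria. The carriers described here are those of glucose, lactate and related monocarboxylates, fatty acids, amino acids and the mitochondrial inner membrane. They were taken by gene symbol, as every row named slc1a, slc2a, slc3a, slc7a, slc16a, slc25a, slc27a or slc38a followed by a digit. That gave 135 of the 25089 rows of the deposited table: 17 glucose carriers (slc2a), 16 carriers of the lactate family (slc16a), 7 of the fatty acid family (slc27a), 43 amino acid carriers (12 slc1a, 3 slc3a, 16 slc7a and 12 slc38a) and 52 mitochondrial carriers (slc25a). The symbol slc27a1b stood on 2 rows, and slc7a6os, which only neighbours a carrier gene and encodes no carrier, matched by its name. It was kept in all counts of carriers below.

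The 6 libraries hold RNA of zebrafish ventricle cells. In 3 of them the heart was uninjured, and in the 3 regenerating ones the apex of the ventricle had been resected 5 days earlier. All animals carried the transgene Gata4:GFP, a green fluorescent reporter of the heart transcription factor gene gata4, and the titles call the cells cardiomyocytes. Apexes were freed of injury tissue, dissociated and sorted by fluorescence straight into lysis buffer, per the labels. Age, sex and the number of fish in each library are not given in the sources used here. A p-value therefore speaks of the spread among libraries, some of which may be technical.

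The heart burns fatty acids, lactate and glucose, and each enters the muscle cell through its own carriers. Glucose passes through the facilitative GLUT proteins of the slc2a family. Lactate and pyruvate move with protons through the MCT proteins of slc16a, which need the chaperone basigin to reach the membrane. Several slc16a members carry other substrates. Amino acids enter by sodium-coupled carriers (slc1a, slc38a), by uniporters of cationic amino acids, and by exchangers in which a light chain of slc7a pairs with a heavy chain of slc3a. In the mitochondrion, slc25a proteins exchange ADP for ATP, bring in phosphate, and shuttle carnitine esters, dicarboxylates, amino acids and cofactors.

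The deposited values are log2 FPKM, that is, fragments per kilobase of transcript, relative to all fragments of the library. Levels here are FPKM divided by a factor per library, set by median ratios over 8924 genes above 1 FPKM in all libraries, and are called scaled FPKM. Because FPKM is per length, levels can be set beside each other between genes. Changes are differences of log2(scaled FPKM + 1), regenerating minus uninjured, and so understate the change of low genes. The scaling matters, since the median of all tested genes stood at 0.51 in the values as deposited and at 0.05 after scaling. The deposited FPKM summed to between 422675 and 535337 per library, and transcripts of mitochondrially encoded genes took 34.5% ± 11.1 of that sum in uninjured and 14.0% ± 4.36 in regenerating libraries (SD, n = 3). Read counts per library are not known.

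Of the 135 carriers, 80 had more than 1 FPKM in at least 3 libraries and were tested together with all other such genes, 13319 in all. The other 55 lay between 0.0231 and 2.78 scaled FPKM, and 16 of them had a mean normalised count of 0 in the authors' deposited table. Since such genes were listed at up to 1.32 scaled FPKM, the deposited values hold a floor, and levels near 1 are not firm evidence of expression. The floor differed between rows, since slc1a7a, also with a mean count of 0, did not exceed 0.0973 scaled FPKM. The scaling divided uninjured libraries by 0.719 to 0.990 and regenerating ones by 1.11 to 1.32, which tilts this floor downward in regenerating libraries. The gene listed at 1.32 had 1.12, 1.22 and 1.32 in uninjured and 0.660, 1.01 and 0.694 in regenerating libraries. A fall or a lack of overlap near the floor can therefore come from the scaling alone. Of the 80 tested carriers, 5 had a mean normalised count under 10, slc1a2b, slc25a13, slc25a32b, slc25a48 and slc25a10, and their values may be mostly floor.

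Relative to the median gene, 4 of the 80 tested carriers were lower in regenerating cells at a limma adjusted p below 0.05, none was higher and 76 did not pass. Of all tested genes 3.94% were called lower and 7.5% higher by the same rule, so the 5% of carriers called lower were near the background. With no adjustment, 10 lower and 9 higher carriers had a limma p below 0.05 (12.5% and 11.3%), against 10.1% and 16.6% of all tested genes. The 4 were the neutral amino acid carrier gene slc38a4, the glutamine carrier gene slc38a3b, the slc16a member slc16a9a and slc25a5, which encodes an ADP/ATP translocase. All 4 were also called lower in the authors' deposited table, which calls 4 carriers higher and 7 lower, or 3.36% and 5.88% of the 119 with a mean count above 0 there, against 4.84% and 4.62% of all genes. The values as deposited, without scaling, gave 14 higher and 2 lower carriers, against 23.7% and 1.52% of all genes. The 2 were slc38a4 and slc38a3b. In sorted bulk samples, fewer cells of a type and less RNA per cell cannot be told apart.

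The groups did not overlap for 12 tested carriers with the regenerating libraries above and for 11 with them below, which are 15% and 13.8% of the 80. Of all tested genes 19.1% lay wholly above and 13.7% wholly below. Some of the 12, such as slc2a6, slc7a8a and slc25a37, passed the filter only through their regenerating libraries, which favours a place above. Among the 11 were slc1a2b and slc2a1a, at low levels, with mean normalised counts of 2.63 and 13.4. The scaling tilts the floor downward, and the part of the floor in their values was not tested. The median change was -0.14 over the carriers and 0.05 over all tested genes. By family the median was -0.29 for the 7 tested glucose carriers, -0.21 for the 7 of the lactate family, -0.21 for the 4 of the fatty acid family, -0.22 for the 22 amino acid carriers and -0.09 for the 40 mitochondrial carriers. Without scaling each of these 5 medians was above 0, between 0.16 and 0.32, while the median gene stood at 0.51, so that in both cases the carriers sat below the median gene.

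**Figure D1:**
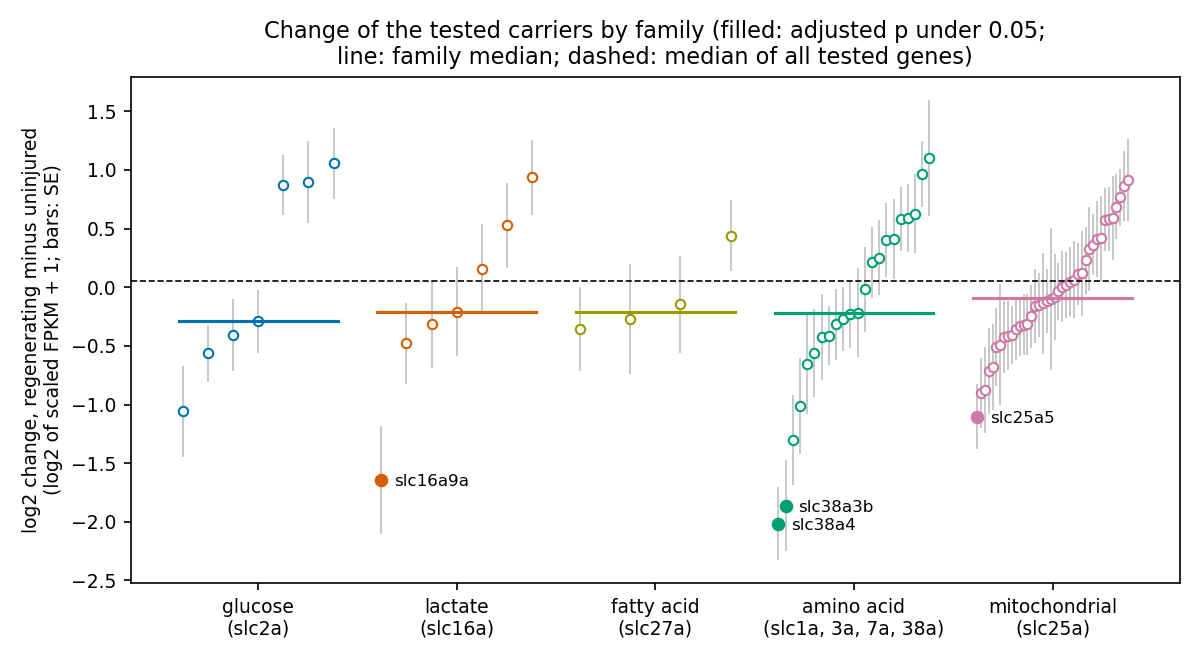
Log2 change of each tested carrier (regenerating minus uninjured, on log2 of scaled FPKM + 1) by family, with SE bars; filled points passed a limma adjusted p of 0.05, coloured lines are family medians and the dashed line is the median of all tested genes at 0.05. The 4 filled points, all lower, are slc16a9a, slc38a4, slc38a3b and slc25a5; without scaling every family median is above 0.

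The glucose carriers were led by slc2a3b (ENSDARG00000037861), a copy of the gene for the high-affinity transporter GLUT3. It held 75.8% of the family's summed scaled FPKM in uninjured libraries on average and 58.9% in regenerating ones. Its level was 129, 69.4 and 54.0 scaled FPKM in uninjured replicates 1, 2 and 3, and 36.0, 58.5 and 24.3 in the regenerating ones. Regenerating replicate 2 stood above uninjured replicate 3, so the groups overlapped. The change of -1.06 (SE 0.39, 95% interval -1.93 to -0.19) did not pass across all genes (limma adjusted p = 0.113, and -0.46 without scaling). Of 7 thrombocyte markers 4 fell, and their summed level ranged from 513 to 986 scaled FPKM in uninjured and from 171 to 354 in regenerating libraries, without overlap. The part of thrombocytes in the values of slc2a3b was not tested.

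Next came slc2a1b, a copy of the gene for the basal transporter GLUT1, with 19.7, 9.86 and 12.2 scaled FPKM in uninjured and 10.1, 7.77 and 12.0 in regenerating libraries. Its groups overlapped and its change was -0.41 (SE 0.31, 95% interval -1.09 to 0.28), or 0.16 without scaling. The other copy, slc2a1a, was low, at 1.62 ± 0.439 and 0.763 ± 0.212 scaled FPKM (SD, n = 3). Its mean normalised count was 13.4, and the part of the floor in its values was not tested.

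Lower in abundance, 3 glucose carriers had positive changes. Their symbols stand for GLUT10, whose loss causes a disease of the arteries in humans, GLUT12 and GLUT6. The gene slc2a10 measured 1.70, 2.72 and 2.32 scaled FPKM in uninjured and 6.46, 3.90 and 7.19 in regenerating libraries. All regenerating values were above all uninjured ones, with a change of 1.05 (SE 0.30, limma adjusted p = 0.0516). A trimmed-mean scaling put it just past the threshold (limma adjusted p = 0.0460), as did no scaling (1.52, limma adjusted p = 0.0112). It passed in none of the fits that each left out a library. For slc2a12 the values were 0.769, 0.677 and 2.64 and then 2.33, 3.54 and 3.66, with a change of 0.90 (SE 0.35, limma adjusted p = 0.133). Without uninjured replicate 3, its only uninjured library above 1, slc2a12 passed (1.29, limma adjusted p = 0.0367). In that fit it met the filter only through the regenerating libraries. The third, slc2a6, went from 0.471 ± 0.117 to 1.74 ± 0.693 (SD, n = 3; change 0.87, SE 0.26, limma adjusted p = 0.0558). No uninjured library had slc2a6 above 1 FPKM, so it passed the filter only through the group where it was high. In the authors' deposited table slc2a6 (log2 change 2.03, adjusted p = 0.0148) and slc2a10 (1.28, adjusted p = 0.0490) were called higher. The liver and pancreas transporter gene slc2a2 and the other GLUT3 copy, slc2a3a, did not exceed 0.509 and 0.131 scaled FPKM in any library.

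In the lactate family the most abundant gene was slc16a9a (ENSDARG00000013926), whose human counterpart is tied to carnitine transport rather than lactate. It measured 15.2, 70.0 and 30.0 scaled FPKM in uninjured and 7.88, 10.6 and 10.3 in regenerating libraries. All 3 regenerating values were below the lowest uninjured one, and uninjured replicate 2 was far above its group. The change of -1.65 (SE 0.46, 95% interval -2.67 to -0.62) passed (limma adjusted p = 0.0463), and the authors' deposited table gives -1.80 (adjusted p = 0.000449). It did not pass in limma without scaling (-1.07) and, of the 6 fits that each left out a library, it passed in the one without uninjured replicate 1. Without uninjured replicate 2 the change was -1.09 (limma adjusted p = 0.0779).

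The carriers that do move lactate showed no change past the threshold. The gene for the lactate exporter MCT4, slc16a3, measured 9.17, 18.3 and 5.63 scaled FPKM in uninjured and 6.61, 7.76 and 9.19 in regenerating libraries. Its groups overlapped throughout (change -0.31, 95% interval -1.16 to 0.53, and 0.23 without scaling). MCT1, the carrier that works in both directions, was represented by slc16a1b with 3.69 ± 2.38 and 3.92 ± 1.17 scaled FPKM (SD, n = 3; change 0.16, 95% interval -0.71 to 1.02). Its copy slc16a1a stayed at or under 0.487. The aromatic amino acid carrier gene slc16a10, named after its value was seen, went from 1.73 ± 0.874 to 4.06 ± 0.711 with no overlap (change 0.94, SE 0.32, limma adjusted p = 0.0927), and passed without scaling (1.35, limma adjusted p = 0.0146).

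Fatty acid transport proteins were low. The muscle form slc27a1a measured 7.51, 6.31 and 3.49 scaled FPKM in uninjured and 3.59, 2.80 and 6.61 in regenerating libraries, and slc27a6, the counterpart of a human heart form, 4.69, 2.40 and 0.987 and then 1.21, 4.23 and 0.895. Both had overlapping groups and wide intervals, from -1.16 to 0.44 for slc27a1a and from -1.33 to 0.78 for slc27a6. The acyl-CoA synthetase gene slc27a2b had 1.67 ± 0.714 and 2.60 ± 0.756, and slc27a4 had 1.595 ± 1.78 and 1.06 ± 0.387 (SD, n = 3). None of the 4 tested members passed under any setting tried, and the signs for slc27a1a, slc27a6 and slc27a4 turned without scaling.

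**Figure D2:**
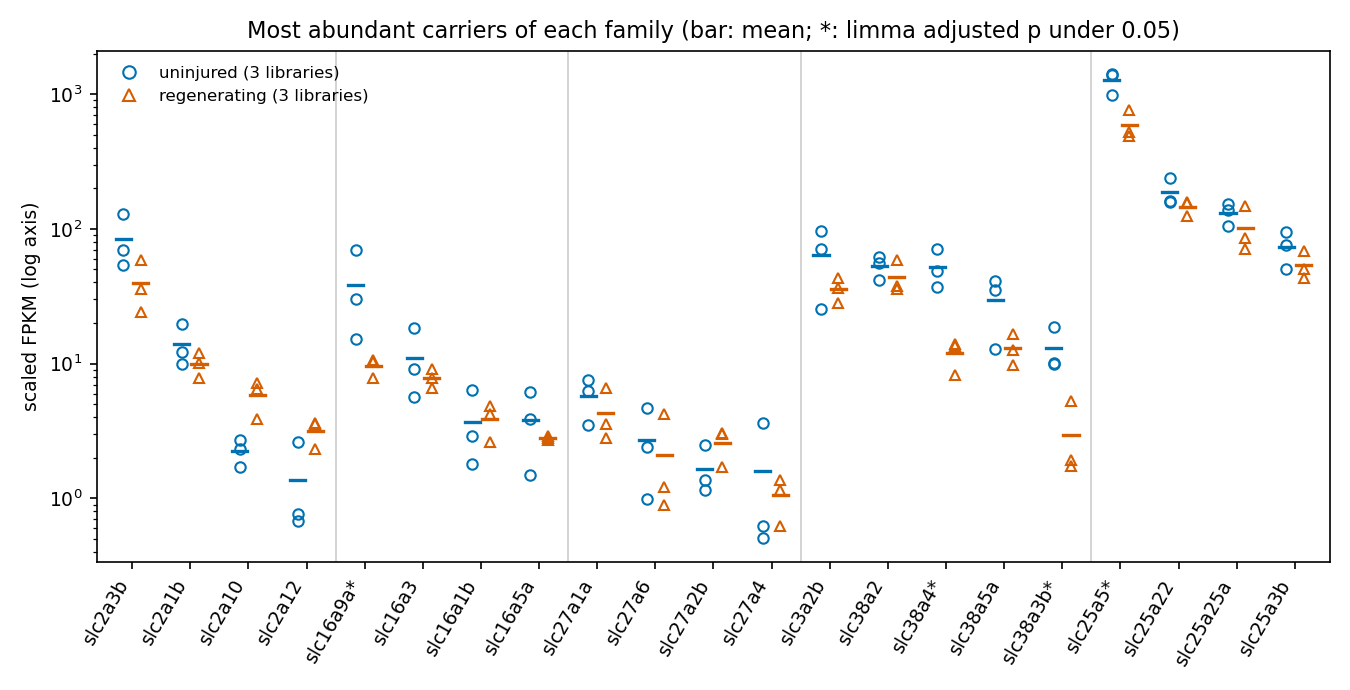
Scaled FPKM per library (log axis) of the 4 most abundant tested carriers of each family and of the carriers past the threshold (asterisks), with circles for the 3 uninjured and triangles for the 3 regenerating libraries and a bar at each group mean. The groups do not overlap for slc38a4, slc38a3b, slc16a9a and slc25a5, while slc2a3b, slc3a2b and slc38a2 overlap.

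Among the amino acid carriers, the fall was clearest in slc38a4 (ENSDARG00000018149), which takes up neutral amino acids with sodium. It measured 36.7, 71.0 and 48.8 scaled FPKM in uninjured and 8.31, 13.6 and 14.1 in regenerating libraries. Every regenerating library was below every uninjured one by a wide margin. The change was -2.02 (SE 0.31, 95% interval -2.71 to -1.32, limma adjusted p = 0.00454), and -2.32 in the authors' deposited table (adjusted p = 3.18e-08). Of the carriers, only slc38a4 passed in all 11 alternative fits, with changes from -2.24 to -1.43.

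The gene slc38a3b (ENSDARG00000091061), for a system N carrier that exchanges glutamine with protons, measured 18.8, 10.01 and 10.1 scaled FPKM in uninjured libraries and 1.93, 1.75 and 5.26 in regenerating ones. Its groups did not overlap, and regenerating replicate 3 was the highest of its group. The change was -1.86 (SE 0.39, 95% interval -2.73 to -0.998, limma adjusted p = 0.0159). Without regenerating replicate 1 or replicate 2, slc38a3b fell short (limma adjusted p = 0.0778 and 0.0758), as it did with no filter on low values (limma adjusted p = 0.0636).

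The other members of slc38a differed. The second system N pair consisted of slc38a5a, at 12.9, 35.2 and 41.1 and then 16.7, 9.83 and 12.5 scaled FPKM, and slc38a5b, at 10.7, 15.4 and 26.0 and then 19.6, 10.5 and 19.8. The change of slc38a5a was -1.0097 (SE 0.41, limma adjusted p = 0.149) and that of slc38a5b was -0.02 (SE 0.36). In uninjured replicate 1 slc38a5a was low, and without that library it passed (-1.50, limma adjusted p = 0.0138). No other alternative fit called it, and without scaling its change was -0.43 (limma adjusted p = 0.516). The authors' deposited table calls slc38a5a lower (-1.28, adjusted p = 0.0123). The system A gene slc38a2, which cells raise when amino acids run short, was abundant in both groups, with 61.5, 41.7 and 55.4 and then 58.9, 35.7 and 37.8 scaled FPKM. Its change was -0.27 (95% interval -0.89 to 0.34), and 0.33 without scaling. For slc38a9, a lysosomal arginine sensor, the levels were 2.27 ± 0.617 and 1.80 ± 0.618 (SD, n = 3). The summed level of the 12 slc38a rows was 151, 186 and 192 scaled FPKM in uninjured and 116, 84.2 and 103 in regenerating libraries, with no overlap. In the values as deposited that sum was 145 ± 36.2 and 126 ± 30.2 FPKM.

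The cationic amino acid carriers of slc7a had negative changes after scaling. The gene slc7a1, for the arginine and lysine uniporter CAT1, measured 4.32, 13.4 and 10.3 scaled FPKM in uninjured and 2.14, 2.99 and 3.58 in regenerating libraries. These did not overlap, and the change was -1.30 (SE 0.38, limma adjusted p = 0.0558). Among the alternative fits slc7a1 passed with the replicate number as a block (limma adjusted p = 0.0355). Without uninjured replicate 1 it also passed (-1.74, limma adjusted p = 0.0113), and in no other alternative. Without scaling the change was -0.81 (limma adjusted p = 0.179). The authors' deposited table calls it lower (-1.72, adjusted p = 0.00249). Its relatives slc7a3a (-0.56), slc7a2 (-0.43) and slc7a3b (-0.32) had overlapping groups and stood at 0.00, 0.02 and 0.16 without scaling.

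The heavy chain of the amino acid exchangers, slc3a2b, had the highest mean of the amino acid carriers over all 6 libraries, just above slc38a2, with 25.5, 96.9 and 71.0 scaled FPKM in uninjured and 43.0, 28.4 and 36.3 in regenerating libraries. Uninjured replicate 1 was below all other libraries. The change was -0.65 (SE 0.43, limma adjusted p = 0.368), and without that library -1.20 (limma adjusted p = 0.0260). No other alternative fit called slc3a2b, and without scaling its change was -0.05 (limma adjusted p = 0.961). The light chain genes slc7a5, slc7a11, slc7a6 and slc7a8a were far less abundant. The leucine exchanger gene slc7a5 reached at most 1.17 scaled FPKM and the cystine exchanger gene slc7a11 at most 0.310, both below the filter. The light chain gene slc7a6 went from 1.77, 0.758 and 0.862 to 2.78, 2.84 and 3.67, without overlap (change 0.97, SE 0.28, limma adjusted p = 0.0544). It was called higher in the authors' deposited table (1.26, adjusted p = 0.0470) and in the values as deposited (1.36, limma adjusted p = 0.00726). For slc7a8a the levels were 0.663 ± 0.364 and 1.48 ± 0.485 (SD, n = 3; change 0.58, SE 0.27, limma adjusted p = 0.200).

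Of the remaining amino acid carriers, slc7a10a, for an exchanger of small neutral amino acids, showed the highest change of all tested carriers, 1.0998 (SE 0.50, limma adjusted p = 0.191). Its values were 8.71, 1.16 and 7.06 scaled FPKM in uninjured and 10.8, 10.4 and 11.4 in regenerating libraries, so that the groups did not overlap, the regenerating libraries were tight and uninjured replicate 2 was low. The glutamine carrier gene slc1a5 measured 5.60 ± 2.13 and 7.75 ± 2.86, and the glutamate carrier gene slc1a3a 1.19 ± 0.690 and 2.39 ± 1.07 (SD, n = 3). Neither passed. The gene slc7a6os went from 9.46 ± 3.17 to 14.5 ± 2.62 (limma adjusted p = 0.224).

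Mitochondrial carriers were dominated by slc25a5 (ENSDARG00000092553), whose product exports ATP from the matrix in exchange for ADP. It alone made up 70.6% of the summed scaled FPKM of the 52 slc25a rows in uninjured libraries on average and 57.8% in regenerating ones. Its level was 1409.9, 1394 and 982 scaled FPKM in uninjured and 522, 485 and 768 in regenerating libraries. The lowest uninjured value was above the highest regenerating one. The change of -1.103 (SE 0.28, 95% interval -1.72 to -0.48) passed (limma adjusted p = 0.0316), and the authors' deposited table gives -1.21 (adjusted p = 0.000308). It did not pass without scaling (-0.49, limma adjusted p = 0.361), with the replicate block (limma adjusted p = 0.0594) or without filter (limma adjusted p = 0.0928). It also did not pass without uninjured replicate 1 or 2 or regenerating replicate 1 or 2 (limma adjusted p = 0.0597, 0.0669, 0.157 and 0.121). The other translocase genes were near the floor, with slc25a4, the counterpart of the mammalian muscle form, at most 1.52 and slc25a6 at most 0.167 scaled FPKM.

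Behind it came slc25a22 (ENSDARG00000020893, named slc25a55a in the reference symbol table), slc25a25a and slc25a3b. The values of slc25a22 were 240.3, 161 and 158.2 scaled FPKM in uninjured and 156, 124 and 157.9 in regenerating libraries (change -0.33, SE 0.25). The regenerating values lay narrowly below all uninjured ones. The calcium-regulated ATP-Mg/phosphate carrier gene slc25a25a measured 152, 106 and 137 and then 149, 71.1 and 85.7, and the phosphate carrier gene slc25a3b measured 94.4, 76.1 and 50.1 and then 50.5, 43.3 and 68.6. Of slc25a22, slc25a25a and slc25a3b none passed (limma adjusted p of 0.437, 0.408 and 0.4005), and each was above 0 without scaling, at 0.28, 0.18 and 0.19. The summed level of the 52 rows was 2021, 1869.7 and 1458 scaled FPKM in uninjured and 1003, 829.5 and 1218 in regenerating libraries. As deposited, the sums were 1466 ± 402 and 1274 ± 333 FPKM (SD, n = 3).

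The carriers of the malate-aspartate shuttle showed no change past the threshold. For the oxoglutarate carrier gene slc25a11 the levels were 17.7 ± 1.94 and 18.7 ± 8.08 scaled FPKM, and for the aspartate-glutamate carrier gene slc25a12 they were 4.88 ± 2.72 and 4.10 ± 1.94 (SD, n = 3). The intervals of their changes ran from -0.68 to 0.68 and from -1.10 to 0.83. The carnitine-acylcarnitine carrier gene slc25a20, which brings fatty acids in for oxidation, measured 6.51, 2.82 and 2.89 and then 5.66, 4.81 and 5.73, a change of 0.41 (95% interval -0.32 to 1.13). Citrate carrier genes slc25a1a and slc25a1b, the glycine carrier gene slc25a38b and slc25a39, for a glutathione carrier, were all between 1.02 and 3.41 on average in each group, with limma adjusted p of 0.465, 0.586, 0.788 and 0.971.

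Of the 40 tested mitochondrial carriers, the regenerating values lay wholly above the uninjured ones for 6 and wholly below for 5, where 19.1% and 13.7% of all tested genes did. Among those above were slc25a10 for dicarboxylates, slc25a24 and slc25a25b for ATP-Mg and phosphate, slc25a44b for branched-chain amino acids and slc25a37 for iron. Their changes ran from 0.58 to 0.91 (limma adjusted p of 0.0963 to 0.208), so that none passed after scaling, and these 5 passed without it (0.85 to 1.31). Those below were slc25a5, slc25a22, slc25a36b, slc25a28 and slc25a29. The pyrimidine nucleotide carrier gene slc25a36b had a change of -0.90 (SE 0.30, limma adjusted p = 0.0842) and slc25a28, for the iron importer mitoferrin 2, one of -0.88 (SE 0.37, limma adjusted p = 0.159). For slc25a29, a carrier of basic amino acids, the change was -0.36 (SE 0.26), and 0.05 without scaling. Its levels were low, at 2.39 ± 0.401 and 1.66 ± 0.395 scaled FPKM (SD, n = 3), with a mean normalised count of 12.0. The part of the floor in its values was not tested. The gene slc25a37 encodes mitoferrin 1, the iron importer of developing red cells in zebrafish, and its level was 0.890, 0.818 and 0.223 and then 1.96, 1.34 and 1.010 scaled FPKM. The summed level of 13 red cell markers ranged from 28.5 to 474 scaled FPKM in uninjured and from 391 to 1080.1 in regenerating libraries, and 4 of the 12 tested rose. Their part in the values of slc25a37 was not tested. The authors' deposited table also calls slc25a27, for the uncoupling protein UCP4, higher (2.42, adjusted p = 0.0468), but only 2 libraries had it above 1 scaled FPKM, and slc25a42, for a coenzyme A carrier, lower (-1.39, adjusted p = 0.0116). In limma slc25a42 had a change of -0.51 (limma adjusted p = 0.354).

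**Figure D3:**
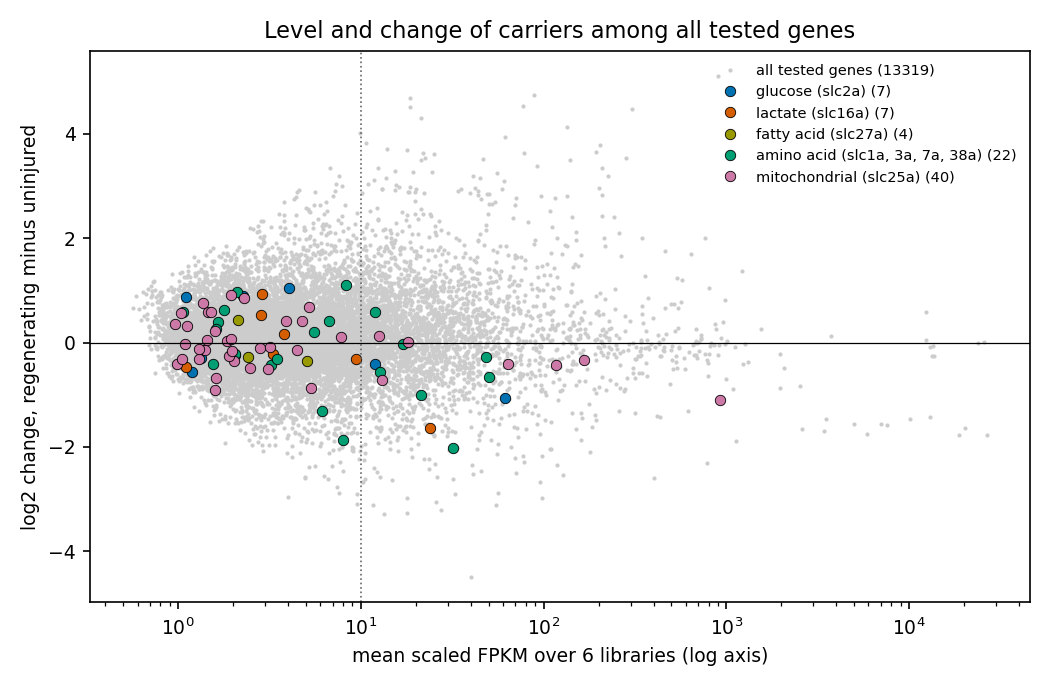
Mean scaled FPKM over the 6 libraries (log axis) against log2 change (regenerating minus uninjured) for all 13319 tested genes in grey and the 80 tested carriers coloured by family, with a dotted line at 10 scaled FPKM. Of the 17 carriers at or right of the dotted line 14 lie below 0, against 7 of 17 in the values as deposited.

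A division by abundance, made after the values were seen, separated the carriers. Of the 17 tested carriers that averaged at least 10 scaled FPKM, 14 had a negative change (82.4%), with a median of -0.43, 3 called lower and none higher. Of all 3077 genes at that level 45.0% had a negative change, their median was 0.10, and 7.25% were called lower and 13.9% higher. Of the 63 less abundant carriers 32 had a negative change (50.8%), with a median of -0.04, against 47.2% of 10242 genes. Without scaling, 7 of the 17 abundant carriers (41.2%) and 18.5% of all abundant genes were negative. The carriers were not picked at random, and no test of these shares was made. The 17 include slc7a6os, which encodes no carrier and had a positive change of 0.59. All 135 rows together made up 0.428% ± 0.0975 of summed FPKM in uninjured and 0.319% ± 0.0667 in regenerating libraries. Leaving the mitochondrially encoded transcripts out of the sum, the shares were 0.724%, 0.667% and 0.563% in uninjured and 0.378%, 0.276% and 0.467% in regenerating libraries, without overlap. The largest single part of the carriers' sum was slc25a5, with means of 1262 scaled FPKM in uninjured and 592 in regenerating libraries. These shares therefore depend heavily on that gene.

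Zebrafish keep a and b copies of many carrier genes from a genome duplication of bony fish. Among the carriers, 32 such pairs had both rows, and in 9 both copies were tested, in 16 only 1 was and in 7 none. In 10 of the 16 the level of the tested copy was more than 10 times that of the other. The gene slc2a3b stood at 61.9 scaled FPKM over all libraries against 0.0931 for slc2a3a, slc25a3b at 63.8 against 0.315 for slc25a3a, and slc7a10a at 8.26 against 0.0667 for slc7a10b. In all of these the lower copy was within the floor, so the size of the ratio is uncertain. Of the 9 pairs with both copies tested, 7 had changes of the same sign after scaling and 4 without it. Of these copies only slc16a9a passed. In the 2 pairs of opposite sign after scaling the abundant copy was below 0 and the minor copy above it. These were slc25a25a and slc25a25b (-0.43 and 0.86, but 0.18 and 1.24 without scaling) and slc3a2b and slc3a2a (-0.65 and 0.40, or -0.05 and 0.74 without scaling).

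The difference between copies was itself compared across libraries, as log2(scaled FPKM + 1) of the a copy minus that of the b copy. The groups did not overlap for 2 of the 9 pairs, slc16a9 and slc38a5. No share over other gene pairs was computed, while of all single tested genes 19.1% lay wholly above and 13.7% wholly below. In slc16a9 the b copy was low, between 0.153 and 2.38 scaled FPKM, so the difference largely repeats the values of slc16a9a. For slc38a5, the pair of nearly equal level, the difference was 0.25, 1.15 and 0.64 in uninjured and -0.22, -0.09 and -0.62 in regenerating libraries, so the a copy led in each uninjured and the b copy in each regenerating library. Both copies are divided by the same factor in the scaling. With 3 libraries against 3 an exact permutation test cannot give a p below 0.1, and the pair was picked for its values. Copies of near-identical sequence may share reads, which could not be checked from the deposited table.

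**Figure D4:**
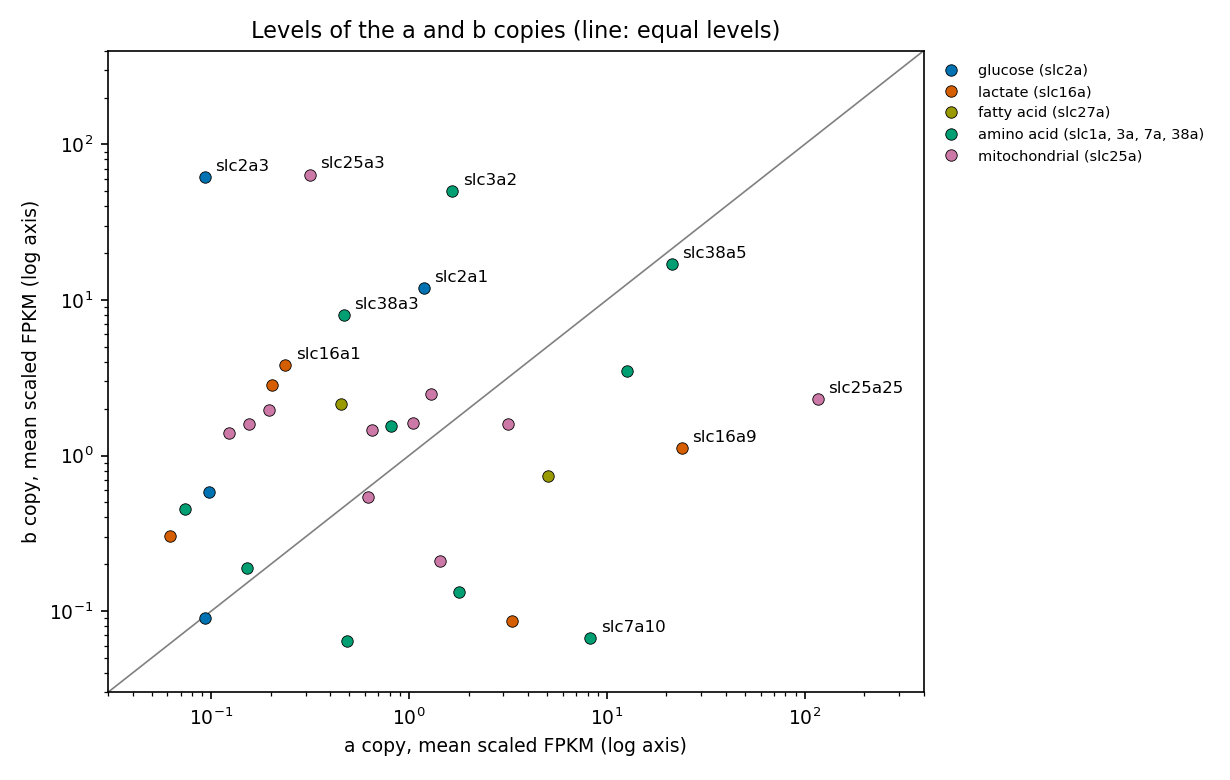
Mean scaled FPKM over the 6 libraries of the a copy (horizontal) and the b copy (vertical), both on log axes, for 32 pairs of carrier genes coloured by family, with a line at equal levels. The pair slc38a5 lies near the line, while slc2a3, slc25a3 and slc3a2 lie far on the side of the b copy and slc25a25 and slc16a9 on that of the a copy.

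Genes that work with these carriers were described from a list of enzymes, chaperones and regulators, of which 72 were tested. Of these 8 were higher (11.1%) and 6 lower (8.33%), against 7.5% and 3.94% of all tested genes. The list was chosen with earlier results of these data known, and no test of these shares was made. The glucose partners held no call among 9 tested, with the hexokinase gene hk1 at 0.05 (SE 0.33) and txnipa, for a protein that removes glucose carriers from the membrane, at -0.12 (SE 0.28). Of the 5 lactate partners 1 was called. This was the lactate dehydrogenase gene ldha, whose product makes lactate from pyruvate. It rose from 63.0, 39.1 and 28.3 to 88.9, 96.8 and 88.4 scaled FPKM (change 1.13, SE 0.30, limma adjusted p = 0.0375). The chaperone gene bsg measured 44.2, 34.4 and 54.0 and then 27.6, 32.9 and 33.1 (change -0.47, SE 0.25, limma adjusted p = 0.256), or 0.13 without scaling.

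Fatty acid partners split, with 1 of 11 tested higher and 2 lower. The gene cpt1b, for the muscle enzyme that commits fatty acids to oxidation, fell from 21.2, 22.8 and 16.9 to 3.69, 4.23 and 6.15 scaled FPKM (change -1.92, SE 0.27, limma adjusted p = 0.00289), and the acyl-CoA synthetase gene acsl1b from 9.30 to 3.26 on average (change -1.27, SE 0.28, limma adjusted p = 0.02004, and -0.76 with a limma adjusted p of 0.121 without scaling). The lipid-binding gene fabp11a, which endothelial cells also express, rose from 45.2, 16.9 and 28.1 to 228.4, 228.4 and 144 (change 2.77, SE 0.36, limma adjusted p = 0.00197). Summed endothelial markers ranged from 175 to 199 scaled FPKM in uninjured and from 272 to 416 in regenerating libraries. Their part in the values of fabp11a was not tested.

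Amino acid partners moved in both directions, with 4 of 27 tested higher and 3 lower. Of the genes for serine and asparagine synthesis 3 rose, psat1 by 1.17 (SE 0.30), phgdh by 0.91 (SE 0.23) and asns by 1.18 (SE 0.29), all from levels under 10 scaled FPKM in every library (limma adjusted p of 0.0343, 0.0317 and 0.0291). The phgdh values were low, at 0.216, 0.0707 and 0.487 and then 1.59, 1.43 and 1.03 scaled FPKM, with a mean normalised count of 11.6. No uninjured library had phgdh above 1 FPKM, so it passed the filter only through the regenerating group. The gene psph, for the last enzyme of serine synthesis, stood at -0.02 (SE 0.27, limma adjusted p = 0.968). The glutaminase gene glsa rose from 1.16, 0.475 and 1.13 to 2.11, 5.21 and 3.62 scaled FPKM. Below 1 FPKM as deposited in every uninjured library, it also passed the filter only through the regenerating group. In contrast, gls2b fell from 3.91, 1.66 and 4.33 to 0.584, 0.207 and 0.902. The most abundant tested glutaminase gene, glsb, averaged 8.81 scaled FPKM over all libraries. It had overlapping groups and a change of 0.10 (SE 0.29, limma adjusted p = 0.851). Glutamine synthetase makes glutamine from glutamate. Its copy glula fell from 10.05, 7.99 and 10.4 to 2.94, 2.72 and 3.19 (change -1.40, SE 0.25, limma adjusted p = 0.00950). The more abundant copy glulb, at 53.3 scaled FPKM over all libraries against 6.22 for glula, did not pass. Groups overlapped for glulb, with a change of -0.68 (SE 0.36, limma adjusted p = 0.260), and -0.07 without scaling. The gene chac1, for an enzyme that breaks down glutathione, also fell (-0.90, SE 0.22, limma adjusted p = 0.0288), but not without scaling (-0.29). The starvation response factor genes atf4a (0.05, SE 0.27) and atf4b (-0.32, SE 0.26) did not pass.

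Of 20 mitochondrial partners tested, timm9 and timm10 rose and ucp3 fell. The products of timm9 and timm10 escort carrier proteins to the inner membrane, and they went from 2.39, 2.16 and 3.27 to 6.07, 6.75 and 8.32 and from 4.80, 6.20 and 6.44 to 17.6, 10.6 and 17.2 scaled FPKM. Their groups did not overlap (changes 1.16 and 1.22, limma adjusted p = 0.0247 and 0.0231). The uncoupling protein gene ucp3 is a carrier of the slc25 family by sequence that the symbol rule leaves out. It fell from 4.59, 6.35 and 5.41 to 1.32, 1.11 and 1.74 (change -1.43, SE 0.27, limma adjusted p = 0.0108). The uncoupling protein genes ucp2 and ucp1 did not pass (-0.34 and -0.19, limma adjusted p of 0.490 and 0.736). Over all libraries ucp2 averaged 30.1 scaled FPKM, against 3.42 for ucp3. The outer membrane channel genes vdac1 (0.34, SE 0.23) and vdac2 (-0.34, SE 0.29) did not pass.

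**Figure D5:**
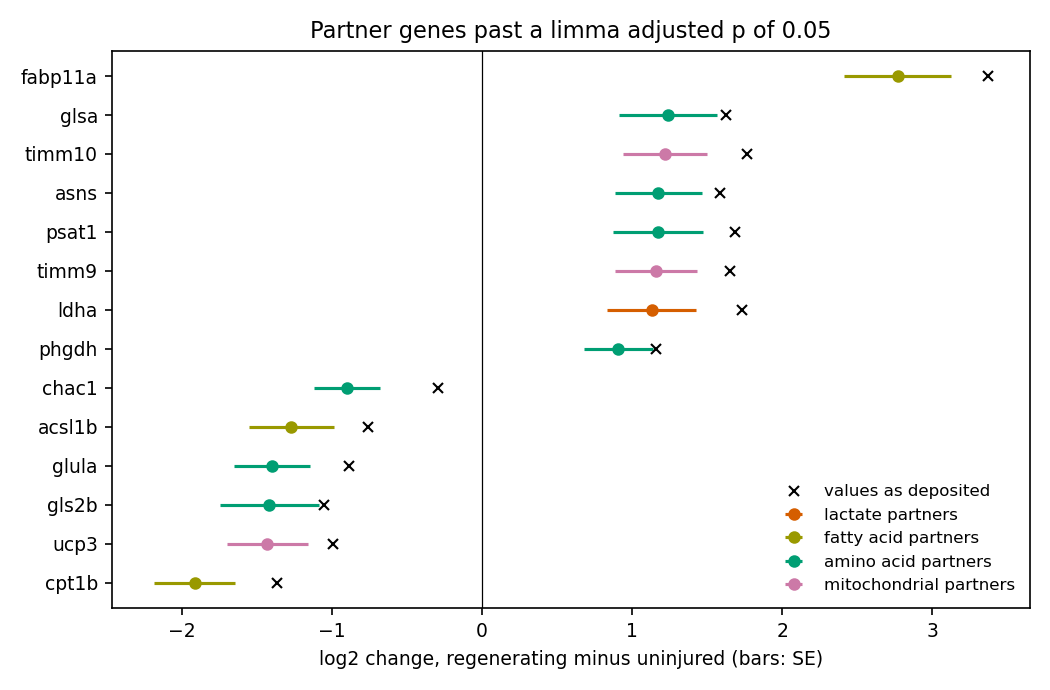
Log2 change (regenerating minus uninjured, SE bars) of the 14 partner genes past a limma adjusted p of 0.05, coloured by the carrier family they work with, and crosses for the change without scaling. The 8 higher genes include ldha, asns, psat1 and fabp11a and the 6 lower ones cpt1b, glula and ucp3; no sign differs between the 2 scalings.

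Marker lists of the sorted cells and of other cells differed in how they stood in the groups. All 13 cardiomyocyte markers with a row were above 1 FPKM in all libraries. Of these 4 fell after scaling, and their summed level ranged from 6295 to 13483 scaled FPKM in uninjured and from 4309.9 to 8434 in regenerating libraries, which overlap. Epicardial markers (9 of 11 tested rose) summed to between 1131 and 1605 in uninjured and between 2214 and 4108 in regenerating libraries. Fibroblast markers (9 of 11 tested rose) summed to between 394 and 482 and then between 2059 and 2404. In the list for smooth muscle and pericytes, 2 of the 7 markers rose and 4 fell, with sums between 488 and 588 and then between 322 and 369. Of 11 leukocyte markers tested 2 rose, and their sums overlapped. All 5 epithelial markers fell, from sums of 179 to 244 down to 13.5 to 45.7. The part of these cells in the carrier values was not tested.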

How the data were processed

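Ventricle cells had been sequenced as paired reads in 3 uninjured and 3 regenerating zebrafish libraries, and groups were read from the sample titles. STAR 2.5.3a, RSEM 1.3.0, R 3.3.3, DESeq2 and the build GRCz10 are named in the submitters' processing notes. The authors deposited log2 FPKM per library with an offset of 0.1 (100% of values lay within 0.001 of a grid of 0.01), which was subtracted. The deposited mean normalised count per gene (a signal over all libraries), and the authors' deposited p-value, adjusted p and log2 fold columns, are quoted only as theirs. Depth per library is unknown.

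Values were scaled by median ratios, filtered (above 1 FPKM in at least 3 libraries) and fitted on log2(value + 1) with limma 3.58.1 in R 4.3.3 (intensity trend, group as only term, two-sided, Benjamini-Hochberg over 13319 genes, threshold 0.05). The script was tested on simulated data. No count test was run. Intervals cover 95%. Alternatives were no scaling, a trimmed-mean scaling, a pseudocount of 0.1, no filter, a replicate block and leaving out each library.

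The members, lists and rules were chosen with earlier results of these data known. The text names every carrier past the threshold, the 3 most abundant tested members of each family and carriers of known main roles. Others were named after their values were seen, because another fit or the authors' deposited table called them, because their groups did not overlap, or as relatives of a named gene. All 135 identifiers were found in the reference symbol table, which is of another build, so no coordinates are given. One carrier is not reported here by name. The labels' tag called batch names the condition.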

Additional observations from a re-analysis of the deposited data

How the results depend on the processing

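Of the calls on single carriers, that of slc38a4 held under all 11 alternatives. Without scaling, which moves the median gene to 0.51, 14 carriers were higher and 2 lower: 3 glucose carriers, 1 of the lactate family, 4 amino acid and 6 mitochondrial carriers higher, and 0 of the lactate family and 0 mitochondrial carriers lower. The sign then turned to 0.23 for slc16a3, 0.33 for slc25a12, 0.14 for slc25a13, 0.0332 for slc25a1a, 0.28 for slc25a22, 0.18 for slc25a25a, 0.23 for slc25a38b, 0.19 for slc25a3b, 0.14 for slc27a1a, 0.18 for slc27a4, 0.10 for slc27a6, 0.16 for slc2a1b, 0.33 for slc38a2, 0.56 for slc38a5b, 0.18 for slc38a9, 0.0173 for slc7a2, 0.0029 for slc7a3a and 0.16 for slc7a3b. Trimmed-mean scaling gave 2 carriers higher, 1 of glucose and 1 of amino acids, 0 of the lactate family lower, and 0.0286 for slc38a5b. Over all 13319 tested genes it called 1132 higher and 493 lower. A pseudocount of 0.1 left 0 of the lactate family lower, with 926 higher and 490 lower over all 13319 genes. With no filter on low values, which adds genes to the adjustment, 1 carrier was lower, of amino acids, with 0 of the lactate family and 0 mitochondrial.

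Leaving out 1 library at a time gave 0 to 1 carriers higher and 1 to 6 lower. By family, 0 to 1 glucose, 0 to 1 amino acid and 0 to 1 mitochondrial carriers were higher, and 0 to 1 of the lactate family, 1 to 5 of amino acids and 0 to 1 mitochondrial were lower. The sign turned in these fits for slc16a1b (-0.16 to 0.55), slc16a3 (-0.68 to 0.094), slc25a11 (-0.30 to 0.21), slc25a12 (-0.60 to 0.16), slc25a1b (-1.15 to 0.0768), slc25a38b (-0.44 to 0.0204), slc25a39 (-0.0913 to 0.23), slc27a4 (-0.44 to 0.0116), slc27a6 (-0.70 to 0.11) and slc38a5b (-0.30 to 0.30). Over all genes, no filter gave 483 higher and 207 lower genes, and leaving out a library 249 to 1056 higher and 133 to 534 lower, against 999 and 525. The cause of these differences was not tested.

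Libraries with the same replicate number did not deviate together (correlations of -0.0127, -0.00465 and -0.0623 across genes). The labels do not state that the numbers mark a pairing. Correlations among so few libraries cannot settle whether they do. With the replicate block 4 carriers were lower and 0 mitochondrial carriers among them, and over all genes 917 were higher and 485 lower. Carriers near the floor of the deposited values cannot be told from unexpressed ones.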
